A study of Mus musculus with 12 samples.

Results

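Protocadherins are the largest branch of the cadherin superfamily of adhesion proteins, and the data described here are their messenger RNA levels in mouse embryonic fibroblasts caught early in conversion to induced motor neurons. The members were the rows of the deposited gene table whose symbol begins with Pcdh. There were 69 such rows among 23077, and 56 of them reached 10 in 3 or more of the 11 libraries and were tested with 14207 genes in all. The 56 comprised 3 of 14 alpha-cluster rows, 19 of 21 beta-cluster rows, 22 of 22 gamma-cluster rows and 12 of 12 non-clustered rows. Below the minimum were 13 rows, of which Pcdha4b and Pcdhac1 were at 0 throughout; the others were Pcdha1, Pcdha2, Pcdha3, Pcdha5, Pcdha6, Pcdha7, Pcdha9, Pcdha11, Pcdha12, Pcdhb10 and Pcdhb12. The highest value among them was 15.5. Pcdha4, Pcdha10, Pcdhb8 and Pcdh12 were just inside the minimum, with 3 libraries, and Pcdha9 and Pcdhb12 were just outside it, with 2.

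Each group is named after the construct it received. RISDD cells received HRAS(G12V), a constitutively active form of the small GTPase HRAS, ahead of an internal ribosome entry site (IRES), followed by SNAP-p53DD, a dominant-negative p53 fragment fused to a SNAP tag (n = 3). SDDIR cells received the same parts in the opposite order, SNAP-p53DD first and HRAS(G12V) after the IRES (n = 2, since 2 columns with the same heading, SDDIR B, held identical values and were counted once; a further labelled SDDIR sample was not analysed here). SDD cells received SNAP-p53DD without HRAS (n = 3), and NIL cells received none of these parts (n = 3). All 4 groups carried the Hb9::GFP reporter of motor neuron identity and were infected with retrovirus encoding Ngn2, Isl1 and Lhx3 joined by 2A peptides, the cassette also called NIL, and all were collected on day 4, after a change to N3 medium on day 3. RepSox, which blocks TGF-beta receptor signalling, was given to RISDD, SDDIR and SDD cells but not to NIL cells. Cells of those 3 groups were sorted for the SNAP tag, whereas the NIL sort kept any live single cell, so p53DD, RepSox, the added virus and the sort cannot be told apart between SDD and NIL.

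Clustered protocadherins lie in the alpha, beta and gamma arrays on mouse chromosome 18. In the alpha and gamma arrays each variable exon has its own promoter and is spliced to constant exons shared by the array, while each beta gene is a single exon. Neurons choose a few promoters per cell, a choice that depends on DNA methylation and on looping by CTCF and cohesin, and the resulting set of proteins lets a neuron tell its own branches from those of its neighbours. The C-type members of the alpha and gamma arrays are instead known to be transcribed more uniformly. Non-clustered protocadherins are separate genes, mostly of the delta-1 and delta-2 families, that act in cell sorting, axon outgrowth and synapse formation.

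Values are the authors' scaled gene counts, called signal here, in which 1 read was worth 0.614 to 1.24. Libraries held 14872639 to 29815073 recovered reads, and protocadherin rows took 0.118% to 0.280% of the signal. The Trp53 row, as a check of the labels, stood at 29277 to 46185 in the libraries given p53DD and at 2873 to 3674 in NIL. The Hras row did not separate the HRAS groups from the others, at 1088 to 1234 in RISDD, 911 to 933 in SDDIR, 830 to 981 in SDD and 1129 to 2342 in NIL; whether it counts reads of the HRAS(G12V) construct is not stated, so the HRAS labels could not be checked with it. All 22 fibroblast markers passed the minimum, and their signal summed to 225239 to 238371 in RISDD, 299234 to 328081 in SDDIR, 793594 to 934702 in SDD and 1082470 to 1619560 in NIL. NIL C stood apart, with 0.537% of its signal from mitochondrially encoded genes against 2.60% to 4.04% in the other libraries, and counts of members called against NIL are also given without it. The labels call the samples biological replicates and say nothing of separate cultures, so p-values measure the spread between these samples only. Changes below are limma contrasts on log2(signal + 1), called at a Benjamini-Hochberg adjusted p under 0.05 over all tested genes, and every fold change is on that scale unless stated otherwise.

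Summed signal fell into a different pattern for each protocadherin group. The alpha rows summed to 22.3, 26.3 and 31.6 in RISDD, 148 and 113 in SDDIR, 425, 336 and 373 in SDD, and 354, 294 and 357 in NIL. Alpha signal was lowest in RISDD, intermediate in SDDIR and highest in SDD and NIL, whose libraries overlapped. The beta rows summed to 680.2, 623 and 601 in RISDD, 422 and 497 in SDDIR, 2393, 1565 and 1656 in SDD, and 1796, 1673 and 1464 in NIL. Both HRAS groups lay below every SDD and NIL library. The gamma rows, which held most of the clustered signal, summed to 8632, 9560.3 and 9287 in RISDD, 7832 and 9089.5 in SDDIR, 13732, 13359.7 and 13314 in SDD, and 16540.5, 16651 and 17528 in NIL. NIL was the highest group for gamma, SDD lay below it, and RISDD and SDDIR overlapped at the bottom. The non-clustered rows summed to 20826, 19973 and 19365 in RISDD, 11669 and 11998 in SDDIR, 34551, 23799 and 25199 in SDD, and 17991, 16489 and 17097 in NIL. Here SDD was highest and SDDIR lowest, and the 3 RISDD libraries lay above the 3 NIL libraries. In bulk RNA of this kind, fewer cells transcribing a gene and less RNA per cell cannot be told apart.

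**Figure D1:**
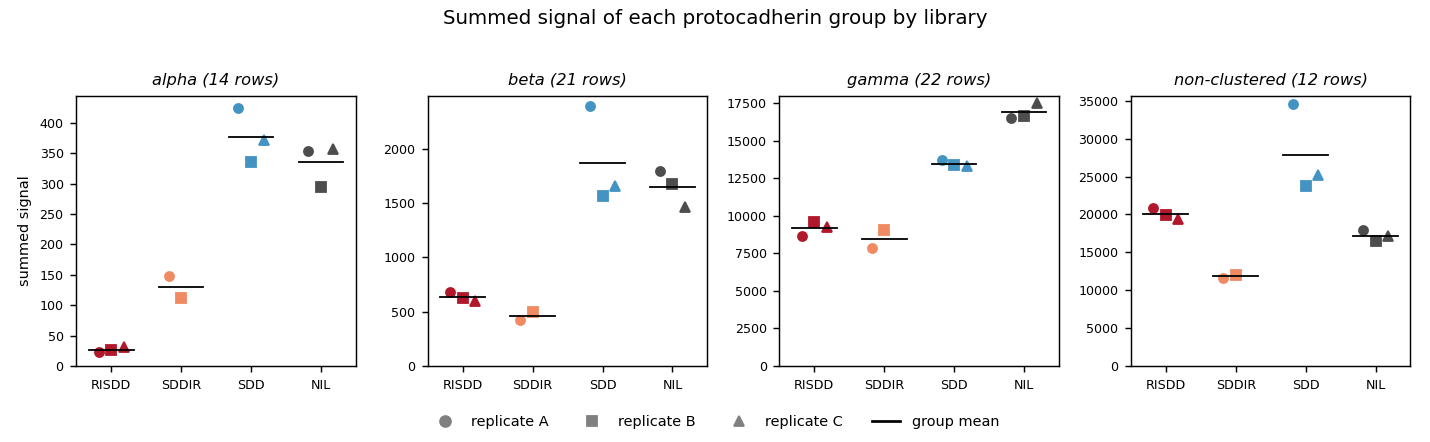
Summed signal (linear axis from 0) of the alpha, beta, gamma and non-clustered rows in each library, by group, with symbols for replicates A to C and a bar for the group mean. Alpha and beta sums were lower in both HRAS groups, RISDD and SDDIR, than in SDD and NIL; the non-clustered sum was highest in SDD.

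Levels of different genes can be compared only per length, here signal per kilobase of the longest coding transcript. On that scale Pcdh7 and Pcdhgc3 headed every group, with Pcdh7 at 1349 in RISDD, 866 in SDDIR, 1904 in SDD and 1228 in NIL. Pcdhgc3 stood at 1091 in RISDD, 1091 in SDDIR, 1543 in SDD and 1929 in NIL. Behind them the order differed between groups. Next came Pcdh1 in both HRAS groups, at 676.5 per kilobase in RISDD and 204 in SDDIR, Pcdh10 in SDD (624) and Pcdh18 in NIL (318). Pcdh8 followed Pcdh1 in RISDD, at 463 per kilobase. Transcript lengths came from a GENCODE release on an older mouse build than the GRCm39 used for the values.

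The addition of HRAS was accompanied by lower signal for most tested members. Relative to SDD, 36 of 56 members fell and 4 rose in RISDD, while 22.6% of all tested genes fell and 20% rose. In SDDIR relative to SDD, 37 fell and 2 rose, against 13.9% and 8.66% of all tested genes. The median log2 change of the tested members was -1.32 for RISDD and -1.24 for SDDIR, where the medians over all tested genes were 0.02 and 0.01. Over the 56 together, the falls thus exceeded the share over all genes in both comparisons, and the rises lay below it. Of the 44 clustered members, 31 fell and 1 rose in RISDD, and 31 fell and 0 rose in SDDIR. Of the 12 non-clustered members, 5 fell and 3 rose in RISDD (median log2 change -0.16), and 6 fell and 2 rose in SDDIR (median -0.76). The low share of rises therefore held for the clustered members only. These comparisons share the SDD libraries; 32 members were called lower in both and 2, Pcdh1 and Pcdh8, higher in both. The count for SDDIR depended on single libraries, with 23 lower without SDDIR A, and 45 lower and 4 higher without NIL C, and that for RISDD ranged from 29 without SDD A to 41 without NIL C. Pcdh12 reached the minimum in RISDD libraries only, and Pcdh8 in all RISDD and SDDIR libraries but elsewhere only in NIL C. Pcdha4, Pcdha10, Pcdhb4, Pcdhb6, Pcdhb8, Pcdhb11 and Pcdhb13 reached it only in SDD or NIL libraries. Being tested at all thus already favoured a difference in these members.

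Between SDD and NIL the changes were fewer and mostly in the non-clustered genes. In SDD 5 non-clustered members rose (Pcdh7, Pcdh9, Pcdh10, Pcdh15 and Pcdh17), and 4 members fell (Pcdh1, Pcdhgb1, Pcdhgb4 and Pcdhgc5), while 9.32% of all tested genes rose and 8.26% fell. No beta or alpha member was called. Both counts are close to the shares of all genes, and most of these calls depended on single libraries: 2 rises were called without SDD A, 3 without SDD B, 2 falls without SDD C, and with only SDD and NIL in the fit 1 rise and 2 falls. Without NIL C there were 5 rises and 5 falls.

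Among the delta-1 genes, Pcdh1, an adhesion molecule known from airway epithelium, had the clearest rise with HRAS. Its signal was 3850.1, 3705 and 3436 in RISDD, 1169 and 1046 in SDDIR, 222, 222 and 132 in SDD, and 339, 399 and 395 in NIL. Every RISDD library was above every SDDIR library, which in turn lay above all NIL and SDD libraries. Pcdh1 was 19.5-fold higher in RISDD than in SDD (log2 change 4.28 ± 0.19 SE, adjusted p = 1.66e-07), 5.89-fold higher in SDDIR than in SDD (log2 change 2.56 ± 0.22 SE, adjusted p = 4.2e-05) and 3.31-fold higher in RISDD than in SDDIR (adjusted p = 0.00134). It was 2.01-fold lower in SDD than in NIL (adjusted p = 0.00667, but 0.0721 with only those groups in the fit). Epithelial markers moved with it: 7 of 7 tested markers rose in RISDD against SDD and 3 of 7 in SDDIR, and the 11 rows of the list summed to 8705 to 12784 in RISDD, 2451 to 3777 in SDDIR, 62.7 to 77.8 in SDD and 898 to 999 in NIL. Krt8 and Krt18 held most of the RISDD and SDDIR sums, and Dsp most of the SDD and NIL sums. Dsp was lower with HRAS than in NIL, at 110 to 206 in RISDD, 39.0 to 42.7 in SDDIR and 840 to 882 in NIL. Against NIL, 6 of the 7 tested markers were higher and 1 lower in RISDD. Cdh1, Cldn4, Cldn7, Esrp1 and Krt14 were at 0 in all SDD libraries, and only Krt14 was at 0 in all RISDD libraries. Of the 7 tested, Cdh1 and Cldn4 reached the minimum in RISDD libraries only, and Grhl2 in RISDD and SDDIR libraries only. Both counts against SDD are thus partly fixed by that minimum. The part of these markers in the Pcdh1 result was not tested.

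Pcdh7, a delta-1 adhesion molecule known in neurons, muscle and bone cells, was the most abundant non-clustered member. It had 12274, 12022 and 11247 in RISDD, 7539 and 7676 in SDDIR, 19883, 15500.5 and 14798 in SDD, and 11431, 10023 and 10898 in NIL. The SDD libraries were highest and the SDDIR libraries lowest, and the RISDD and NIL libraries overlapped between them. Relative to SDD it fell 2.18-fold in SDDIR (log2 change -1.12 ± 0.14 SE, adjusted p = 0.000373) and 1.40-fold in RISDD (adjusted p = 0.01), and SDD exceeded NIL 1.54-fold (adjusted p = 0.00866, but 0.0786 with only those groups in the fit). The 1.56-fold excess of RISDD over SDDIR (adjusted p = 0.019) did not pass without any one RISDD library or any one SDDIR library (p then 0.0508 to 0.145 after adjustment).

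The remaining delta-1 genes, Pcdh9 and the X-linked Pcdh11x, changed less. Pcdh9 had 739.6, 787 and 779 in RISDD, 480.2 and 416 in SDDIR, 947, 597 and 575 in SDD, and 353, 454 and 169 in NIL. It was 2.29-fold higher in SDD than in NIL (log2 change 1.19 ± 0.32 SE, adjusted p = 0.0295), with no overlap, and not called against SDD in either HRAS group (log2 change 0.16 ± 0.32 in RISDD and -0.62 ± 0.36 in SDDIR). The rise over NIL did not pass without any one SDD library (p then 0.0578 to 0.112 after adjustment). It was also lost with array weights, which weight libraries by their variability, and with only SDD and NIL in the fit. Pcdh11x had 171, 188 and 205 in RISDD, 83.0 and 56.9 in SDDIR, 223, 127 and 140.1 in SDD, and 130.2, 81.4 and 59.2 in NIL. Both SDDIR libraries lay below every RISDD and SDD library and overlapped NIL. Pcdh11x was 2.28-fold below SDD in SDDIR (adjusted p = 0.0337) and 2.70-fold higher in RISDD than in SDDIR (adjusted p = 0.03). The first did not pass without any one RISDD library, any one SDDIR library or SDD A or SDD C (p then 0.0533 to 0.248 after adjustment), and the second without any one RISDD library, any one SDDIR library or SDD C (p then 0.0503 to 0.227 after adjustment).

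Of the delta-2 genes, Pcdh8, Pcdh10 and Pcdh18 differed most between groups, and to show what their promoters share, the 250 bases upstream of their annotated starts are printed here, 5′ to 3′ on the gene's strand, from RefSeq on GRCm38.p6; the signal values were quantified on another build, GRCm39. Capitals mark the CCAAT box, which reads ATTGG when it lies on the opposite strand, and the TATA box (TATAAA). Pcdh8 is at chr14:79771313-79771562 (minus strand), Pcdh10 at chr3:45378148-45378397 (plus strand) and Pcdh18 at chr3:49757317-49757566 (minus strand).
Pcdh8: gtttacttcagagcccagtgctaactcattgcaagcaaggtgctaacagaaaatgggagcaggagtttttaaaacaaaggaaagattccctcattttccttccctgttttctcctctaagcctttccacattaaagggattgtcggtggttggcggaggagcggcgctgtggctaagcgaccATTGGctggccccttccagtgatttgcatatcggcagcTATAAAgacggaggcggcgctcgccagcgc
Pcdh10: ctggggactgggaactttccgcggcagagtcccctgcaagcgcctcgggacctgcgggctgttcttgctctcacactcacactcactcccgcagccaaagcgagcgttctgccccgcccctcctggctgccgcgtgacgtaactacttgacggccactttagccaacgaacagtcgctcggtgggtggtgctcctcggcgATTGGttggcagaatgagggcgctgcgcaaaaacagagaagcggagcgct
Pcdh18: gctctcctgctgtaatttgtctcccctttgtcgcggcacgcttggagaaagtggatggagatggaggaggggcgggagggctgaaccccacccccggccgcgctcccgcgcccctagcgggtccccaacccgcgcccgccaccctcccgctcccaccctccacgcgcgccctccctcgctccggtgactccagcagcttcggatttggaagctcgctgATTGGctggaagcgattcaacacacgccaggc
The 3 promoters share a CCAAT box, 68, 50 and 32 bases upstream of Pcdh8, Pcdh10 and Pcdh18, and only that of Pcdh8 also has a TATA box, 30 bases upstream. Searched on both strands of such windows, CCAAT was present in 33.9% and TATAAA in 12.4% of 32851 mouse promoters. Of the 9 non-clustered genes with a matched window, Pcdh7 alone had no CCAAT box, and Pcdh15 also had a TATA box, 33 bases upstream. AP-1 (TGANTCA), ETS (CCGGAAG) and a Neurog2-type E-box (CAGATG) occurred in 6.75%, 6.91% and 14.4% of all promoters and in none of these 9 windows. The CCAAT and TATA letters were searched after the sequences had been seen.

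Pcdh8, also called arcadlin, a delta-2 protocadherin induced by neuronal activity that promotes N-cadherin internalisation, was close to its detection limit without HRAS. It had 1994, 1519.9 and 2046 in RISDD, 122 and 197 in SDDIR, 4.51, 6.77 and 3.69 in SDD, and 6.51, 2.23 and 11.6 in NIL. All 3 RISDD libraries were above both SDDIR libraries, and these were far above SDD and NIL, which overlapped at a few reads per library. Relative to SDD it was 314-fold higher in RISDD (log2 change 8.29 ± 0.45 SE, adjusted p = 4.5e-07) and 26.6-fold higher in SDDIR (log2 change 4.74 ± 0.51 SE, adjusted p = 0.000145), and RISDD exceeded SDDIR 11.8-fold (adjusted p = 0.00253). The SDD signal rested on 17 reads in all, against 5704 in RISDD, a ratio per library read of 382 (95% exact interval 238 to 656, counting error only). With a pseudocount of 10 the log2 change over SDD was 6.95 in RISDD and 3.47 in SDDIR. Outside the HRAS groups only NIL C reached the minimum, so being tested already favoured a rise with HRAS.

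Pcdh10 (OL-protocadherin), which recruits the WAVE actin-regulatory complex through Nckap1 and guides axon growth, went the opposite way. Its signal was 139.8, 124 and 128 in RISDD, 196 and 288 in SDDIR, 7698, 2573 and 5136 in SDD, and 739.7, 331 and 713 in NIL. SDD was the highest group in every library, NIL came next, and RISDD was lowest, below both SDDIR libraries. Relative to SDD it fell 35.5-fold in RISDD (log2 change -5.15 ± 0.40 SE, adjusted p = 4.26e-06) and 19.6-fold in SDDIR (log2 change -4.29 ± 0.44 SE, adjusted p = 0.000125). Relative to NIL it rose 8.34-fold in SDD (log2 change 3.06 ± 0.40 SE, adjusted p = 0.00112) and fell 4.26-fold in RISDD (adjusted p = 0.00171), while the SDDIR difference missed the threshold (log2 change -1.23 ± 0.44, adjusted p = 0.055). The summed signal of motor neuron markers followed the same order of groups, at 2628 to 2885 in RISDD, 5993 to 6950 in SDDIR, 32062 to 50957 in SDD and 13955 to 19915 in NIL. Gfra1 and Chodl held most of the SDD and NIL sums. Slc5a7 had another order, at 793 to 967 in RISDD, 236 to 293 in SDDIR, 259 to 463 in SDD and 83.5 to 270 in NIL. Of 9 tested motor neuron markers, 8 fell in RISDD and 6 in SDDIR against SDD, and 6 rose in SDD against NIL; Chat was at 0 in the libraries of all 4 groups, and Isl2 reached the minimum in SDD libraries only. Their part in the Pcdh10 result was not tested.

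Pcdh18, whose protein binds the adaptor Dab1, was graded across the HRAS groups. It had 92.8, 86.0 and 86.1 in RISDD, 458 and 347 in SDDIR, 1617, 1469.8 and 1440.0 in SDD, and 1905, 1544 and 1480.2 in NIL. RISDD was lowest and SDDIR intermediate, with no overlap, while SDD and NIL overlapped. It fell 16.9-fold in RISDD (log2 change -4.08 ± 0.15 SE, adjusted p = 6.86e-08) and 3.77-fold in SDDIR (log2 change -1.92 ± 0.16 SE, adjusted p = 4.48e-05) relative to SDD, and was 4.48-fold lower in RISDD than in SDDIR (adjusted p = 0.000189). Pcdh19, the X-linked gene mutated in a female-limited epilepsy, had 1001, 924 and 975 in RISDD, 1192 and 1463 in SDDIR, 2635, 2462 and 2336 in SDD, and 2485, 3060.0 and 3046 in NIL. It was 2.56-fold lower in RISDD (log2 change -1.36 ± 0.13 SE, adjusted p = 1.55e-05) and 1.87-fold lower in SDDIR (log2 change -0.91 ± 0.14 SE, adjusted p = 0.00142) than in SDD, with no overlap. The difference between the HRAS groups was not called (adjusted p = 0.0763). Fibroblast markers were also lower with HRAS, 20 of 22 in RISDD and 17 of 22 in SDDIR against SDD, and their part in the Pcdh18 and Pcdh19 results was not tested.

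Pcdh17, a delta-2 protocadherin of axons that migrate together, had 340.1, 425 and 346 in RISDD, 213 and 266 in SDDIR, 422, 291 and 221 in SDD, and 116, 204 and 132 in NIL. All 3 SDD libraries lay above all 3 NIL libraries, and RISDD and SDD overlapped. It was 2.05-fold higher in SDD than in NIL (log2 change 1.03 ± 0.27 SE, adjusted p = 0.0258), a call lost without SDD A or SDD B or NIL A (p then 0.0652 to 0.0927 after adjustment), and was not called against SDD in RISDD (adjusted p = 0.416) or SDDIR (adjusted p = 0.489). The call over NIL was also lost with array weights and with only SDD and NIL in the fit.

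**Figure D2:**
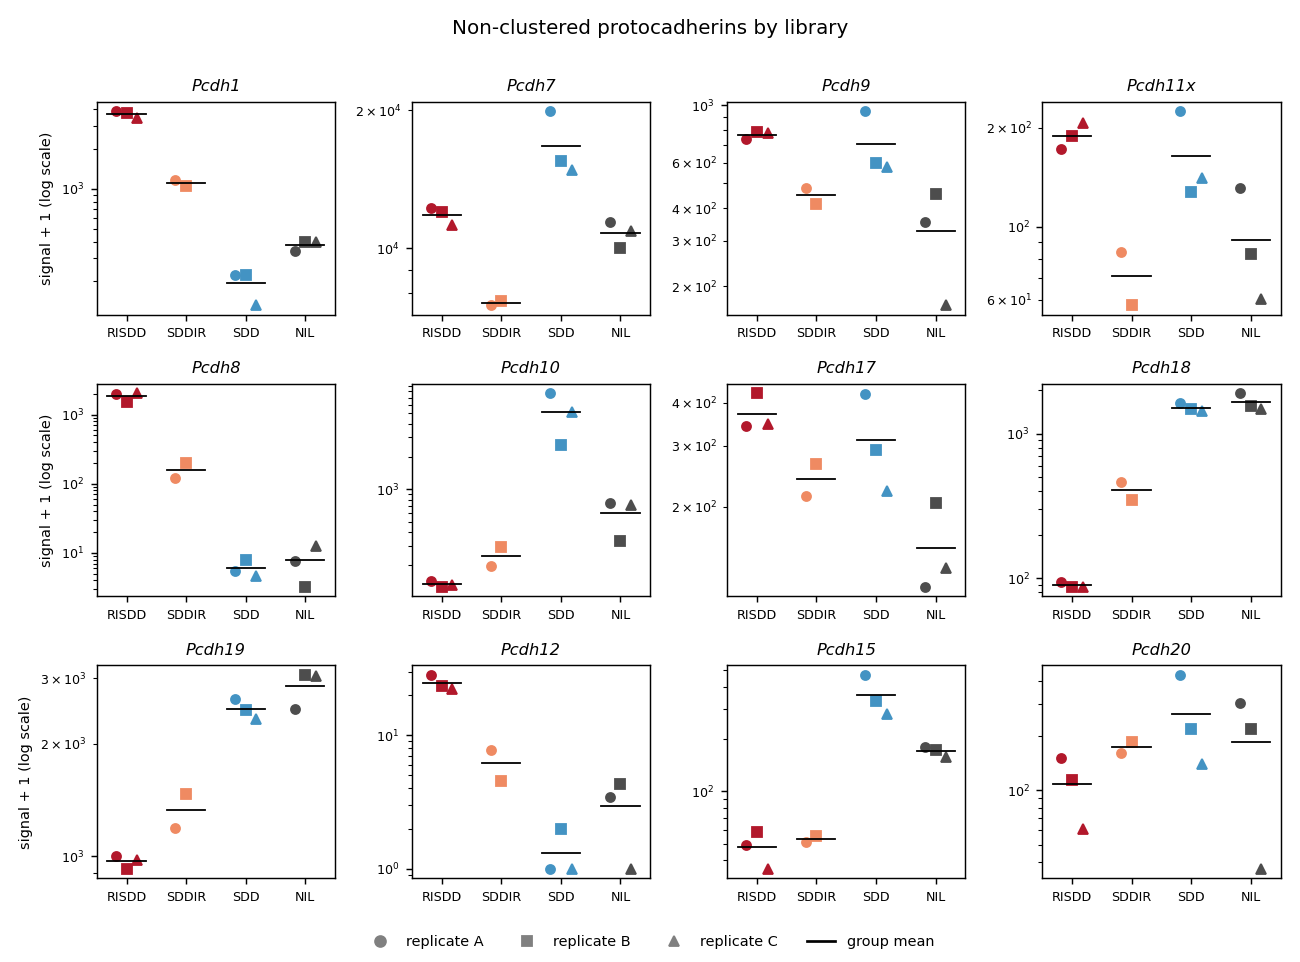
Signal + 1 (log axis) of the 12 non-clustered protocadherins in each library, by group, with symbols for replicates A to C and a bar for the group mean. Pcdh1 and Pcdh8 are highest in RISDD, lower in SDDIR and lower again in SDD, Pcdh18 shows the opposite order, and Pcdh10 is highest in SDD.

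The last 3 non-clustered genes fall outside the delta families. Pcdh15, which pairs with Cdh23 in the tip links of hair cells, had 48.2, 57.6 and 34.8 in RISDD, 50.0 and 54.5 in SDDIR, 469, 334 and 279.5 in SDD, and 181, 172 and 156 in NIL. SDD was highest, NIL next, and the HRAS groups overlapped at the bottom. It fell 7.53-fold in RISDD (log2 change -2.91 ± 0.24 SE, adjusted p = 7.34e-06) and 6.64-fold in SDDIR (log2 change -2.73 ± 0.27 SE, adjusted p = 0.000106) relative to SDD. The 2.08-fold rise in SDD over NIL (adjusted p = 0.0158) did not pass without SDD A (p then 0.0617 after adjustment). The call was also lost with array weights and with only SDD and NIL in the fit. Pcdh12 (VE-cadherin-2), known from endothelium and trophoblast, ranged from 21.3 to 27.2 in RISDD, 3.56 to 6.78 in SDDIR, 0 to 0.967 in SDD and 0 to 3.34 in NIL. It was called higher in RISDD than in SDD (adjusted p = 0.000419) and than in NIL (adjusted p = 0.00226), on 71 reads in RISDD, 1 in SDD and 6 in NIL. The ratio per library read was 80.8 over SDD (95% exact interval 14.0 to 3235) and 12.9 over NIL (5.63 to 36.2). Pcdh12 reached the minimum in RISDD libraries only, so being tested already favoured a rise there.

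Endothelial markers moved with Pcdh12: 6 of 8 tested markers rose in RISDD against SDD and 2 of 8 in SDDIR. The 13 rows of that list summed to 8324 to 9468 in RISDD, 4862 to 5240 in SDDIR, 1708 to 2458 in SDD and 3061 to 4137 in NIL. Flt1 alone held most of these sums, at 7441 to 8576 in RISDD, 4410 to 4812 in SDDIR, 1413 to 2210 in SDD and 2823 to 3741 in NIL. Among the defining genes, Cdh5 stood at 419 to 539 in RISDD and Pecam1 at 15.8 to 32.4, while Emcn and Erg were at 0 in all RISDD libraries. Of the 8 tested, Pecam1 and Esam reached the minimum in RISDD libraries only, so this count too is partly fixed by it. The part of these markers in the Pcdh12 result was not tested. Pcdh20 was called in none of the 6 comparisons, like Pcdha4, Pcdha10, Pcdhb4, Pcdhb11, Pcdhga12 and Pcdhgb7, and had 149.7, 112 and 60.1 in RISDD, 159 and 184 in SDDIR, 429.6, 216 and 138 in SDD, and 300.3, 216 and 35.9 in NIL.

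Most alpha signal outside RISDD came from Pcdhac2, a C-type member needed for the spacing of serotonergic axons. It had 2.47, 15.2 and 13.4 in RISDD, 126 and 103 in SDDIR, 357, 317 and 344 in SDD, and 323, 242 and 302 in NIL. The RISDD libraries were lowest, SDDIR intermediate without overlap, and the SDD and NIL libraries overlapped at the top. Pcdhac2 fell 36.5-fold in RISDD relative to SDD (log2 change -5.19 ± 0.48 SE, adjusted p = 1.39e-05) and 12.3-fold relative to SDDIR (adjusted p = 0.00302). The first estimate moved to a log2 change of -4.48 without RISDD A, the library with 2 reads, and the second to -2.91. With a pseudocount of 10 they were -4.17 and -2.67. The difference between SDDIR and SDD did not pass (log2 change -1.56 ± 0.54, adjusted p = 0.0618). Pcdhac2 made up 11.1% to 57.7% of alpha signal in RISDD, 85.1% to 91.6% in SDDIR, 84.1% to 94.5% in SDD and 82.2% to 91.3% in NIL. Pcdha4 and Pcdha10 were called in no comparison.

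The beta cluster, made of single-exon genes that share no constant exon, had low signal, and most of its tested members fell with HRAS. All 19 tested beta members had a lower mean log2 signal in RISDD and in SDDIR than in SDD, and for all 19 the libraries of each HRAS group lay below those of SDD. In each comparison 16 of the 19 were called, beside 22.6% of all tested genes lower in RISDD and 13.9% in SDDIR. Pcdhb4, Pcdhb6, Pcdhb8, Pcdhb11 and Pcdhb13 reached the minimum only in SDD or NIL libraries, so being tested already favoured a fall in them. Pcdhb22, the most abundant, had 168, 169 and 158 in RISDD, 123 and 123 in SDDIR, 541, 335 and 356 in SDD, and 396, 382 and 450.4 in NIL. Pcdhb19 had 105, 95.1 and 93.3 in RISDD, 66.9 and 68.8 in SDDIR, 378, 249 and 238 in SDD, and 254, 237 and 181 in NIL. Pcdhb17 had 100.2, 75.8 and 86.1 in RISDD, 50.8 and 64.0 in SDDIR, 307, 201 and 213 in SDD, and 268, 237 and 233 in NIL. For these 3 genes SDD and NIL overlapped, and every HRAS library was lower than every library without HRAS. Pcdhb16 had 53.2, 66.7 and 72.7 in RISDD, 27.9 and 45.1 in SDDIR, 215, 138 and 134 in SDD, and 187, 202 and 115 in NIL. Pcdhb20 had 54.4, 46.5 and 38.7 in RISDD, 16.9 and 39.1 in SDDIR, 211, 156 and 154 in SDD, and 151, 124 and 144 in NIL. Pcdhb18 had 27.2, 40.4 and 36.4 in RISDD, 31.3 and 35.6 in SDDIR, 131, 89.0 and 102 in SDD, and 83.0, 105 and 24.3 in NIL. Pcdhb16 and Pcdhb20 again showed no overlap between groups with and without HRAS, whereas for Pcdhb18 NIL C lay below every HRAS library.

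Against SDD, Pcdhb22 fell 2.42-fold in RISDD (log2 change -1.28 ± 0.19 SE, adjusted p = 0.000297) and 3.24-fold in SDDIR (log2 change -1.70 ± 0.21 SE, adjusted p = 0.000325). Among these 6, Pcdhb20 fell most, 3.67-fold in RISDD (adjusted p = 0.000571) and 6.44-fold in SDDIR (adjusted p = 0.000373). Pcdhb18 did not pass for SDDIR without any one RISDD library, any one SDDIR library, any one SDD library or NIL A (p then 0.0513 to 0.213 after adjustment), nor for RISDD without RISDD A or SDD A (p then 0.0673 to 0.0691 after adjustment). The other 13 beta members stayed below 100 in every library. At the lowest end Pcdhb9 had 2 reads over the RISDD libraries and 89 over the SDD libraries, a ratio per library read of 0.0256 (95% exact interval 0.00305 to 0.0951). Median log2 changes over the 19, those favoured by the minimum included, were -1.60 in RISDD and -2.03 in SDDIR. Between RISDD and SDDIR no beta member was called (log2 changes -1.76 to 1.71), and none was called between SDD and NIL.

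**Figure D3:**
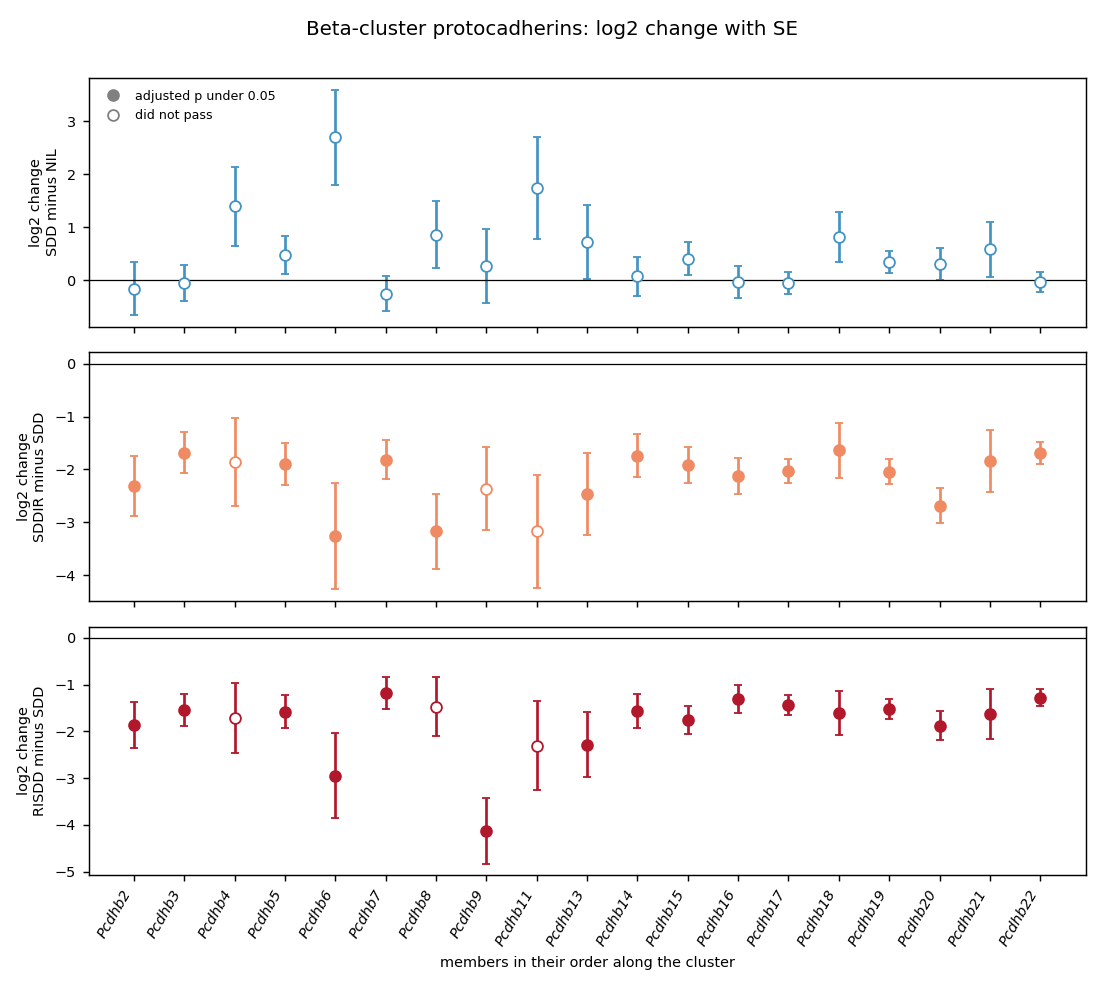
Log2 change with its SE (vertical axis) of the 19 tested beta members in their order along the cluster (horizontal axis) for SDD minus NIL, SDDIR minus SDD and RISDD minus SDD; filled points passed. In the lower panels every point is below 0, with 16 filled in each.

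In the gamma cluster the A and B types fell more in the first part of the array than in the last. In array order, Pcdhga1 had 59.4, 78.9 and 48.2 in RISDD, 88.1 and 81.8 in SDDIR, 174, 189 and 179 in SDD, and 256, 253 and 256 in NIL. Pcdhga2 had 69.3, 103 and 103 in RISDD, 141 and 165 in SDDIR, 356, 296 and 269 in SDD, and 366, 398 and 405 in NIL. Pcdhga3 had 65.5, 73.8 and 93.3 in RISDD, 98.2 and 130.4 in SDDIR, 465, 344 and 339 in SDD, and 504, 566 and 466 in NIL. In each of these 3 genes both HRAS groups lay below all SDD and NIL libraries. Pcdhgb1 had 81.6, 61.7 and 64.8 in RISDD, 88.9 and 107 in SDDIR, 132, 177 and 163 in SDD, and 211, 254 and 319 in NIL. Pcdhga4 had 151, 120.3 and 125 in RISDD, 87.2 and 139.9 in SDDIR, 365, 299 and 292 in SDD, and 288, 331 and 291 in NIL. Pcdhgb2 had 319, 282 and 290.1 in RISDD, 231 and 258 in SDDIR, 566, 524 and 379.7 in SDD, and 513, 586 and 472 in NIL. Again no HRAS library reached the SDD range. Pcdhga5 had 192, 201 and 160.4 in RISDD, 172 and 224 in SDDIR, 452, 351 and 383 in SDD, and 465, 562 and 482 in NIL. Pcdhga6 had 50.7, 58.7 and 57.7 in RISDD, 53.4 and 103 in SDDIR, 257, 310.4 and 265 in SDD, and 258, 315 and 225 in NIL. Pcdhga7 had 204, 249.8 and 165 in RISDD, 215 and 231 in SDDIR, 546, 529.9 and 499 in SDD, and 789, 863 and 597 in NIL. These 3 showed the same separation.

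Further along the array the differences were smaller in RISDD. Pcdhgb4 had 146, 164 and 141 in RISDD, 83.8 and 127 in SDDIR, 227, 241 and 177 in SDD, and 387, 406 and 386 in NIL. Pcdhga8 had 92.8, 113 and 98.8 in RISDD, 88.1 and 104 in SDDIR, 219, 205 and 199 in SDD, and 263, 255 and 186 in NIL. Pcdhgb5 had 104, 173 and 143 in RISDD, 82.2 and 108 in SDDIR, 260.5, 158 and 134 in SDD, and 192, 216 and 194 in NIL. Of these, Pcdhgb5 had RISDD libraries within the SDD range. Pcdhga9 had 86.6, 101 and 91.7 in RISDD, 56.7 and 81.8 in SDDIR, 183, 151 and 155 in SDD, and 186, 149 and 141 in NIL. Pcdhgb6 had 669, 669 and 669 in RISDD, 452 and 612 in SDDIR, 1057, 929 and 746 in SDD, and 1003, 1016 and 1043 in NIL. Pcdhga10 had 335, 353 and 329.6 in RISDD, 215 and 189.7 in SDDIR, 398, 366 and 326 in SDD, and 535, 552 and 378 in NIL. For Pcdhga10 the RISDD libraries overlapped SDD while both SDDIR libraries lay below. Pcdhga11 had 202, 261 and 243 in RISDD, 143 and 187 in SDDIR, 316, 246 and 238 in SDD, and 286, 314 and 335 in NIL. Pcdhga11 likewise overlapped between RISDD and SDD. Pcdhgb7, Pcdhgb8 and Pcdhga12 were not called against SDD in either HRAS group (log2 changes 0.36 ± 0.15, 0.13 ± 0.34 and 0.21 ± 0.18 in RISDD).

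Relative to SDD, Pcdhga3 fell 4.88-fold in RISDD (log2 change -2.29 ± 0.20 SE, adjusted p = 9.51e-06) and 3.32-fold in SDDIR (log2 change -1.73 ± 0.22 SE, adjusted p = 0.00046), and Pcdhga6 fell 4.91-fold in RISDD (log2 change -2.29 ± 0.25 SE, adjusted p = 3.64e-05) and 3.69-fold in SDDIR (log2 change -1.88 ± 0.27 SE, adjusted p = 0.000913). Of the 19 A- and B-type members, 12 fell in RISDD and 14 in SDDIR. Without SDDIR A, Pcdhga2, Pcdhga5, Pcdhgb4 and Pcdhgb6 did not pass in SDDIR (adjusted p 0.0539 to 0.116), nor did Pcdhga1 and Pcdhga10 without SDDIR B (adjusted p = 0.0506 and 0.0875). Pcdhga11 did not pass there without RISDD C, any one SDDIR library or SDD A or SDD B (p then 0.0503 to 0.268 after adjustment), and Pcdhgb6 did not pass in RISDD without any one RISDD library, SDD A or SDD B or NIL A or NIL B (p then 0.051 to 0.163 after adjustment). Split by position, a split made after the values were seen, 9 of the first 10 and 3 of the last 9 fell in RISDD, with median log2 changes of -1.31 and -0.18. In SDDIR the counts were 9 of the first 10 and 5 of the last 9, with medians of -1.06 and -0.78. Spearman's rho between array position and log2 change over the 19 members was 0.868 for RISDD against SDD (0.830 to 0.884 for the single RISDD libraries) and 0.588 for SDDIR against SDD (0.535 to 0.625). The same measure was 0.423 for SDD against NIL, and over the 19 beta members it was 0.225 for RISDD against SDD.

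These correlations are descriptions without a test, because the members share libraries and, for gamma, constant exons. A median of 46.0% of a gamma member's 31-base words (range 27.3% to 67.5%) occurred in another protocadherin transcript, against 11.6% for beta members and at most 0.0618% for non-clustered members. Reads in those shared stretches are divided among members by the quantifier, so single gamma and alpha values are less certain than their sums. The words were taken from the GENCODE release used for the lengths. Over the 19 gamma members, rho between the shared percentage and the log2 change in RISDD against SDD was -0.111, and rho between the SDD level and that change was -0.084. For SDDIR against SDD these were 0.074 and -0.139. For SDD against NIL they were 0.244 and, with the NIL level, -0.361.

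**Figure D4:**
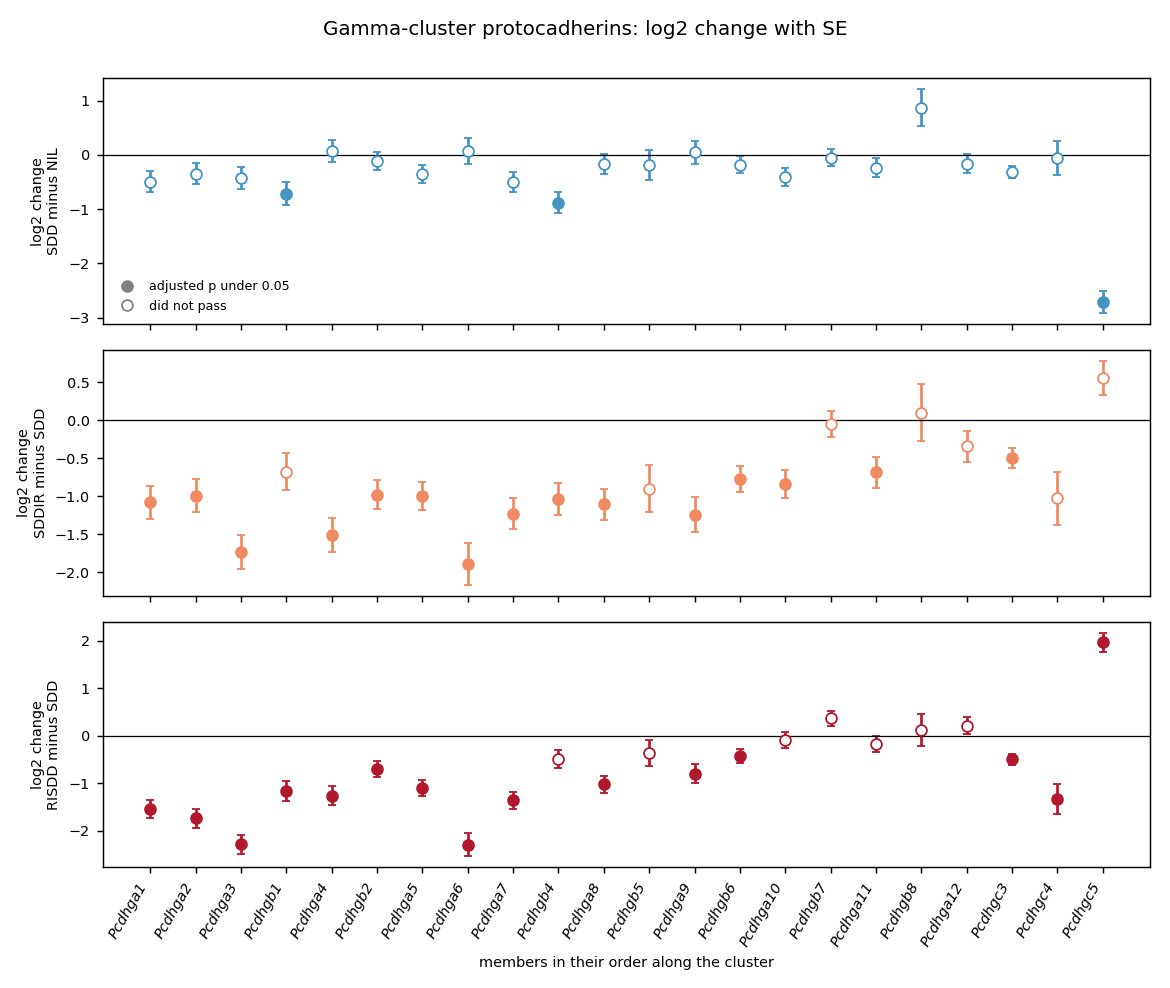
Log2 change with its SE (vertical axis) of the 22 gamma members in their order along the cluster (horizontal axis) for SDD minus NIL, SDDIR minus SDD and RISDD minus SDD; filled points passed. In RISDD minus SDD the points of the A and B types tend to lie higher further along the array, and Pcdhgc5 is the highest of the 22, whereas it is the lowest in SDD minus NIL.

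The 3 C-type gamma genes at the end of the array behaved differently from one another. Pcdhgc3, which binds Axin1 and dampens Wnt signalling, had 4618, 5373 and 5344 in RISDD, 4822 and 5405 in SDDIR, 6727, 7236 and 7736 in SDD, and 8779, 8502 and 9844 in NIL. NIL was highest, SDD lower without overlap, and RISDD and SDDIR overlapped below SDD. It carried 49.0% to 61.6% of gamma signal in every library and was 1.42-fold lower in RISDD (log2 change -0.50 ± 0.11 SE, adjusted p = 0.00496) and 1.42-fold lower in SDDIR (adjusted p = 0.0176) than in SDD. The SDDIR call did not pass without any one SDDIR library or SDD B or SDD C (p then 0.0502 to 0.161 after adjustment). Pcdhgc4, the member required for survival of spinal interneurons, had 51.9, 45.5 and 58.5 in RISDD, 58.4 and 71.1 in SDDIR, 176, 87.0 and 151 in SDD, and 125, 106 and 197 in NIL. Both HRAS groups lay below all SDD and NIL libraries. It was 2.53-fold lower in RISDD than in SDD (adjusted p = 0.00543), and SDDIR against SDD missed the threshold (log2 change -1.03 ± 0.35, adjusted p = 0.0583).

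Pcdhgc5, a C-type member found mainly in neurons and known to bind GABA-A receptors, had a different order of groups. It had 279.5, 214 and 289 in RISDD, 83.8 and 110.3 in SDDIR, 63.1, 58.0 and 76.2 in SDD, and 463, 367 and 479 in NIL. The order of groups was RISDD above SDDIR, SDDIR above SDD, and NIL above them all, with no overlap. In SDD it was 6.55-fold lower than in NIL (log2 change -2.71 ± 0.20 SE, adjusted p = 5.83e-05), the largest change among the 3 clustered members called there. In RISDD it was 3.92-fold higher than in SDD (log2 change 1.97 ± 0.20 SE, adjusted p = 2.63e-05) and 1.67-fold lower than in NIL (adjusted p = 0.0123), the second of which did not pass without RISDD B (p then 0.0577 after adjustment). SDDIR was not called against SDD (log2 change 0.55 ± 0.23, adjusted p = 0.112). Pcdhgb4 and Pcdhgb1 were the other clustered members lower in SDD than in NIL, by 1.84-fold (adjusted p = 0.0118) and 1.65-fold (adjusted p = 0.0441). Pcdhgb4 did not pass without SDD C (p then 0.0548 after adjustment), nor Pcdhgb1 without any one RISDD library, any one SDDIR library, any one SDD library or NIL B or NIL C (p then 0.057 to 0.141 after adjustment). The Pcdhgb1 call was also lost with array weights and with only SDD and NIL in the fit.

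**Figure D5:**
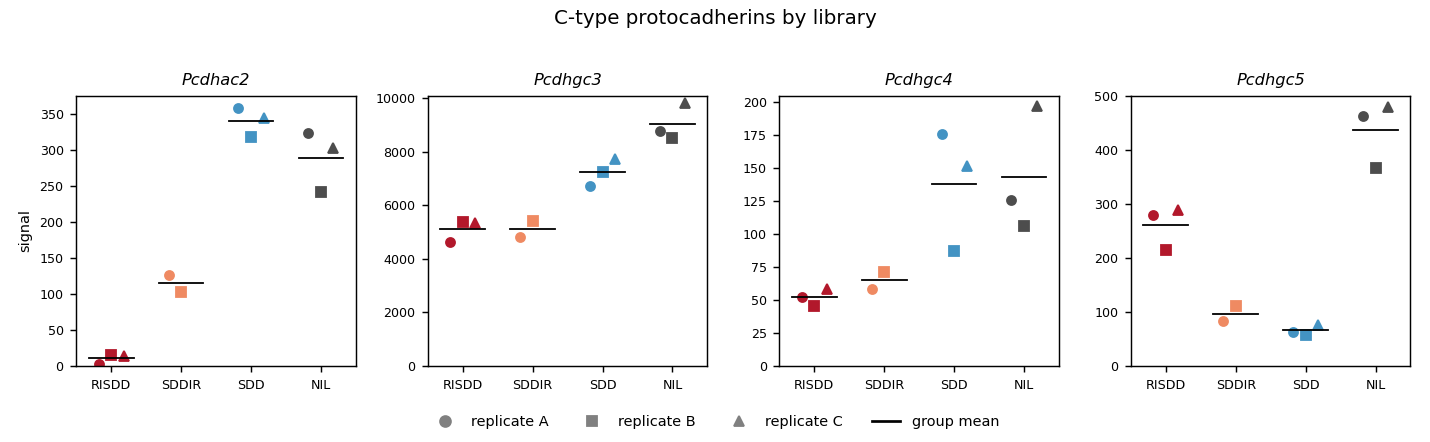
Signal (linear axis from 0) of the tested C-type protocadherins in each library, by group, with symbols for replicates A to C and a bar for the group mean. Pcdhac2 is lowest in RISDD; Pcdhgc5 is lowest in SDD and highest in NIL.

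The place of HRAS before or after the IRES was compared directly. In RISDD relative to SDDIR, 6 of 56 members were called higher (Pcdh1, Pcdh7, Pcdh8, Pcdh11x, Pcdhga10 and Pcdhgc5) and 2 lower (Pcdh18 and Pcdhac2), where 4.64% of all tested genes were higher and 5.05% lower, so that only the higher calls exceeded the overall share. Array weights gave 19 higher and 6 lower, and a fit of only these groups 12 higher and 5 lower. Pcdhgc5 was 2.67-fold higher (adjusted p = 0.00426), a call lost without SDDIR A (p then 0.0658 after adjustment). Pcdhga10 was 1.68-fold higher (adjusted p = 0.0329), a call lost without any one RISDD library, any one SDDIR library or SDD B (p then 0.055 to 0.218 after adjustment). With SDDIR at 2 libraries, the count of higher members was 2 without SDDIR A, 3 without SDDIR B or any one RISDD library, and 10 without NIL C, which also gave 4 lower. Array position and log2 change in the gamma A and B types had a rho of 0.751 here. The shared percentage and the SDDIR level had rho values of -0.344 and 0.251 with the same change.

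Against NIL, the full sets of factors gave 7 members higher and 34 lower in RISDD, beside 23.2% and 23.5% of all tested genes, and 2 higher and 35 lower in SDDIR, beside 15.3% and 18.2%. Without NIL C the counts were 8 higher and 39 lower in RISDD and 3 higher and 38 lower in SDDIR. These comparisons share the NIL libraries. In both, 12 of 19 beta members were lower. Of 22 gamma members 17 were lower in RISDD and 19 in SDDIR. Pcdhga3 fell most among gamma members, 6.58-fold in RISDD (adjusted p = 3.47e-06) and 4.48-fold in SDDIR (adjusted p = 9.08e-05). Pcdhgb8, named after its values were seen, was the only gamma member called higher, 1.99-fold in RISDD (adjusted p = 0.0326). Pcdh9, Pcdh17 and Pcdh11x were also higher in RISDD than in NIL, by 2.55-fold, 2.51-fold and 2.18-fold (adjusted p = 0.00611, 0.00253 and 0.0144), the last not without RISDD C (p then 0.0533 after adjustment). Pan-neuronal markers summed to 24187 to 26316 in RISDD, 11539 to 12166 in SDDIR, 13195 to 21186 in SDD and 8296 to 12649 in NIL. Of 18 tested pan-neuronal markers, 9 were higher and 4 lower in RISDD, and 7 higher and 2 lower in SDDIR, than in NIL; against SDD, 6 were higher and 7 lower in RISDD. Gap43, Nefl and Nefm held most of the RISDD sum, while Dcx, the migration protein doublecortin, stood at 1.58 to 19.8 in RISDD and 644 to 1062 in SDD. Leukocyte markers summed to 907 to 1827 in RISDD, 393 to 934 in SDDIR, 630.3 to 1650 in SDD and 3767 to 14801 in NIL, and 7 of 11 tested were lower in RISDD and 10 of 11 in SDDIR than in NIL. The part of either marker list in these differences was not tested.

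Lists of related genes, written with earlier results of these data known, were counted beside the members. Among regulators of the clustered locus (CTCF, cohesin and chromatin factors, 21 tested), 2 were higher and 3 lower in RISDD and 0 higher and 1 lower in SDDIR relative to SDD, with median log2 changes of -0.10 and 0.01. These counts lie below the shares over all tested genes, 20% higher and 22.6% lower in RISDD and 8.66% higher and 13.9% lower in SDDIR. The DNA methyltransferase gene Dnmt3a had 1085, 951 and 1025 in RISDD, 1090.0 and 1105 in SDDIR, and 2039.8, 1580.0 and 1611 in SDD, 1.70-fold lower in RISDD and 1.58-fold lower in SDDIR, both against SDD (adjusted p = 0.000829 and 0.00868). Zfp143, a CTCF-associated factor, was 1.69-fold higher in RISDD than in SDD (adjusted p = 0.00304). In SDD relative to NIL, 4 were higher and 0 lower, among them the cohesin subunit gene Rad21, which averaged 5761 ± 372 in SDD and 3092 ± 630.4 in NIL (± SD over 3 libraries; 1.89-fold, adjusted p = 0.00289), and Ctcf (1.31-fold, adjusted p = 0.0359). Without NIL C the rise was 1.69-fold (adjusted p = 0.000285) for Rad21 and 1.28-fold (adjusted p = 0.013) for Ctcf.

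Of 28 tested genes for intracellular partners of protocadherins, 5 were higher and 6 lower in RISDD, and 1 higher and 6 lower in SDDIR, relative to SDD, with median log2 changes of 0.10 and -0.10. In RISDD these counts are close to the shares over all tested genes (20% higher and 22.6% lower). The shares over all tested genes in SDDIR were 8.66% higher and 13.9% lower. Wasf3, a WAVE-complex subunit, averaged 20.6 ± 5.66 in RISDD and 73.7 ± 12.0 in SDDIR, against 269 ± 31.2 in SDD, 12.8-fold and 3.63-fold lower (adjusted p = 5.98e-06 and 0.00287). Ptk2b, the kinase Pyk2 that protocadherins restrain, was 3.09-fold higher in RISDD and 4.42-fold higher in SDDIR than in SDD (adjusted p = 0.00164 and 0.00159). Its signal was 1882 to 1928 in RISDD, 2266 to 3301 in SDDIR, 440 to 1020 in SDD and 1108 to 2019 in NIL. The NIL and RISDD libraries thus overlapped, and SDD was lowest. Marcks, a membrane-actin linker in the gamma-protocadherin pathway of dendrites, was 2.50-fold lower in RISDD than in SDD (adjusted p = 3.15e-05).

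The other cadherins were counted in the same way. Of 16 tested classical cadherins, 3 were higher and 8 lower in RISDD and 1 higher and 7 lower in SDDIR, relative to SDD. The shares over all tested genes were 20% higher and 22.6% lower in RISDD, and 8.66% higher and 13.9% lower in SDDIR. Median log2 changes of the 16 were -1.63 and -1.15. Cdh7, Cdh18 and Cdh19 reached the minimum only in SDD or NIL libraries, so being tested already favoured a fall in them. Cdh6, a type II cadherin of neural crest and motor neuron pools, averaged 425 ± 37.3 in SDDIR, against 2368 ± 665 in SDD (5.43-fold lower, adjusted p = 0.000114), and SDD exceeded NIL 3.64-fold (adjusted p = 0.000728), or 3.23-fold (adjusted p = 0.000527) without NIL C. Cdh8 averaged 1.91 ± 1.86 in RISDD and 15.8 ± 3.95 in SDDIR, against 443 ± 290.2 in SDD (adjusted p = 5.48e-06 and 0.000861). Cdh1, E-cadherin, was at 71.7, 314 and 198 in RISDD and was listed at 0 in all SDD libraries (adjusted p = 4.46e-05), but it reached the minimum in RISDD libraries only, so being tested already favoured that difference. Of 14 other cadherin-superfamily genes tested, 4 were higher and 6 lower in RISDD and 0 higher and 6 lower in SDDIR. Their median log2 changes were -0.62 and -0.59, and the shares over all tested genes are those given above. Fat4, a giant cadherin of planar polarity, was 5.57-fold lower in RISDD and 4.00-fold lower in SDDIR, both against SDD (adjusted p = 6.62e-06 and 0.000204). Cdh1, Cdh5, Cdh6, Cdh19 and Ret stand in both a related-gene list and a marker list.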

How the data were processed

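Polyadenylated RNA of sorted cells was sequenced. The submitters' processing notes name Trim Galore 0.6.10, Salmon 1.10.3 and the GRCm39 build. The gene values deposited by the authors are a signal, gene counts divided by a factor per library; how they were summarised and scaled is not stated there or in the labels. Every library gave whole reads for 100% of values at a tolerance of 0.001 (14872639 to 29815073 reads). One column repeated another exactly and was not used.

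A gene was tested if it reached 10 in 3 or more of 11 libraries (14207 of 23077). Contrasts were fitted to log2(signal + 1) in 1 model of all 4 groups with limma 3.58.1 (R 4.3.3), with Benjamini-Hochberg adjustment over all tested genes and calls at 0.05; the model was checked on simulated data. The 22 alternatives covered upper-quartile scaling, DESeq2 1.42.0 and edgeR 4.0.16 on the recovered reads, pseudocounts of 0.5 and 10, other filters, other variance settings, a replicate block and each library left out. Values per library are given for members called in at least 1 comparison where one of its groups averaged 100 or more (and for Pcdh20), and related lists name at most 3 called genes per comparison, those with the largest changes at such a mean. Members and lists were chosen with earlier results of these data known. Intervals of read ratios cover counting error only.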

Additional observations from a re-analysis of the deposited data

How the results depend on the processing

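Changes called neither in the main fit nor in an alternative were left out of the check of direction. Of 137 calls of the members given per library, none changed direction and 106 held under all 22 alternatives. They were 27 of 29 for RISDD against SDD, 19 of 29 for SDDIR against SDD, 4 of 8 for RISDD against SDDIR and 2 of 9 for SDD against NIL, 29 of 32 for RISDD against NIL and 25 of 30 for SDDIR against NIL. Array weights gave 2 members higher in SDD against NIL (5 as reported), 4 higher in SDDIR against SDD (2), 8 higher in RISDD against SDD (4), and 19 higher and 6 lower in RISDD against SDDIR (6 and 2). With only the groups compared in the fit, SDD against NIL gave 1 higher and 2 lower, and RISDD against SDDIR 12 higher and 5 lower. DESeq2 gave 7 lower for SDD against NIL (4) and 4 lower for RISDD against SDDIR (2). The cause of these shifts was not tested.

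With each library left out in turn, higher and lower counts ranged from 2 to 6 and 2 to 5 for SDD against NIL, 2 to 4 and 23 to 45 for SDDIR against SDD, 4 to 5 and 29 to 41 for RISDD against SDD, 2 to 10 and 2 to 4 for RISDD against SDDIR, 2 to 3 and 27 to 38 for SDDIR against NIL, and 5 to 8 and 31 to 39 for RISDD against NIL.

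The replicate letters were not taken to pair the samples: same-letter correlations of deviations ranged from 0.0516 to 0.2713 among RISDD, SDD and NIL, not every one over 0.1, although in 18 of 18 comparisons of a library with another of these groups its own letter correlated best. With the letter as a replicate block, higher and lower counts were 6 and 4 for SDD against NIL, 2 and 38 for SDDIR against SDD, 4 and 38 for RISDD against SDD, 6 and 2 for RISDD against SDDIR, 2 and 36 for SDDIR against NIL, and 7 and 34 for RISDD against NIL. Of the calls of members given per library, the block lost Pcdhgb6 in RISDD against SDD (adjusted p = 0.0549), Pcdhga11 in SDDIR against SDD (0.0504) and Pcdhgb1 in SDD against NIL (0.0525), and gained Pcdhgb4 in RISDD against SDD (0.0409) and Pcdhga7 in SDD against NIL (0.0392).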
